A study of Homo sapiens with 9 samples.

Results

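Integrins of epithelial cells were followed as 10 genes, chosen by symbol and not by a cut on measured values, but with earlier results of these data known. The set holds the α subunit genes ITGA2, ITGA3, ITGA5, ITGA6 and ITGAV and the β subunit genes ITGB1, ITGB3, ITGB4, ITGB5 and ITGB8. They are 10 of the 62703 genes in the deposited table, and each matched 1 symbol and passed the filter on low counts. The libraries come from HK-2, a human proximal tubule cell line transformed with papillomavirus 16. The study asks how MYDGF, a growth factor that cells secrete, acts on injured tubule cells. In the MYDGF group, cells received an adenovirus carrying MYDGF (vector GV314) and 5 µg/ml of aristolochic acid, a plant toxin of tubule cells, for 48 h. The aristolochic acid group received the toxin alone at the same dose and time. Untreated cells received no toxin, and no time is given for them. Each group holds 3 libraries of wild-type genotype, and all 9 carry the same protocol of 12 h without serum and a medium with 5% serum. The labels name no control vector or vehicle for either of the groups without MYDGF, so MYDGF and the virus that carries it cannot be told apart. For 4 libraries the treatment label reads HK-3 or HK-4 although the cell line entry reads HK-2. Whether libraries of 1 group stem from separate cultures is not stated, so p-values here reflect only how these samples spread, and that spread may be technical.

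Integrins are pairs of an α and a β chain that cross the cell membrane, hold the cell to its matrix and pass signals through talin, kindlin and focal adhesion kinase to the actin skeleton. The β chain of ITGB1 pairs with all of the α chains followed here, and the pair decides the ligand: the ITGA3 and ITGA6 pairs bind laminins of the basement membrane, the ITGA2 pair binds collagens and the ITGA5 pair binds fibronectin. The chain of ITGB4 pairs with that of ITGA6 in hemidesmosomes, while the chains of ITGB3, ITGB5 and ITGB8 pair with that of ITGAV and bind vitronectin or latent TGF-β. In the tubule, these receptors anchor cells to the basement membrane, and the ITGAV pairs are known as activators of TGF-β in fibrosis.

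Total counts per library ran from 10876572 to 14254786. MYDGF itself stood at 663, 510 and 599 CPM (counts scaled by TMM to 1000000 per library) in the MYDGF group, 105, 74.2 and 90.4 CPM in the aristolochic acid group and 125, 131 and 123 CPM in untreated cells; these counts do not separate vector from cellular transcripts. The epithelial keratins KRT8 and KRT18 were at 722 to 742 and 518 to 537 CPM in the MYDGF group, 872 to 1001 and 586 to 599 CPM with aristolochic acid, and 559.6 to 592 and 368 to 375 CPM in untreated cells. The tubule genes PAX8, LRP2 and SLC34A1 had only 69, 18 and 10 counts over all 9 libraries and were not tested. Among markers of other cell types, CD3E, CD3D, MS4A1 and EMCN had 0 counts, PTPRC had 23 and DCN had 1 over the 9 libraries. Others were present and differed between groups, such as PECAM1 with 85 counts in the MYDGF group, 289 in the aristolochic acid group and 22 in untreated cells.

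Of the 10 integrin genes, 3 fell in the aristolochic acid group against untreated cells: ITGB1, ITGB8 and ITGA5. With MYDGF added to the toxin, ITGA5 and ITGA3 were higher and ITGB8 still lower than in the aristolochic acid group, while ITGB1 averaged 1159.7 ± 27.1 CPM with MYDGF, 1212 ± 129 CPM with the toxin alone and 1831 ± 92.3 CPM in untreated cells (SD, n = 3 each). The sequences before the start sites of the 3 genes that fell with aristolochic acid are shown as context, and any link to the fall was not tested. They are RefSeq windows on GRCh38.p14, ended where GENCODE 29 places the first exon base, read 5′ to 3′ on the gene's strand. Capitals mark matches on either strand to GGGCGG, the GC box bound by SP1-type factors, or CATTCC, the TEAD motif; the AP-1 motif TGANTCA was also searched and not matched in these windows, and no 2 matches overlap.
ITGB1, chr10:32958233-32958480, minus strand: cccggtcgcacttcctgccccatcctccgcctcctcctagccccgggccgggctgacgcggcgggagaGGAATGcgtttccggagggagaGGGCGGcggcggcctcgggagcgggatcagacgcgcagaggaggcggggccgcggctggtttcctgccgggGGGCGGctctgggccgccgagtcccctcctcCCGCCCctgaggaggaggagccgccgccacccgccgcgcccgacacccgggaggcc
ITGB8, chr7:20330650-20330701, plus strand: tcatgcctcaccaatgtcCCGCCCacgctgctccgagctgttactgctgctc
ITGA5, chr12:54419461-54419516, minus strand: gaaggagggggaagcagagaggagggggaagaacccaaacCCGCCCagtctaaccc
As printed, the ITGB1 window of 248 bases holds 3 GC boxes and 1 TEAD match, and the windows of ITGB8 (52 bases) and ITGA5 (56 bases) hold 1 GC box each. The bases of the ITGB8 and ITGA5 windows nearest the RefSeq start lie past the cut and are not printed. A second RefSeq window of ITGB1 (chr10:32935559-32935808, minus strand), not printed, holds no match to any of the motifs. Before the cut at exons, the windows of 250 bases held 3 GC boxes and 1 TEAD match for ITGB1, 2 GC boxes for ITGB8, and 1 GC box and 1 TEAD match for ITGA5. Among genes not called in that comparison, uncut windows held 4 GC boxes for ITGA2, up to 3 for ITGA6, up to 3 for ITGB5 and 0 for ITGAV, without a TEAD match. GC boxes thus occurred both in genes that fell and in genes not called, and whether they bear on the fall was not tested. For these uncut windows the background is all 35116 RefSeq windows of 250 bases, of which 42.6% hold GGGCGG, 11.9% hold CATTCC and 6.57% hold TGANTCA on either strand. The table had windows for 7 of the 10 genes, and ITGA3, ITGB3 and ITGB4 are named only. Matches are descriptions of letters and no binding was measured.

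ITGB1, the common β chain (ENSG00000150093, chromosome 10, 32887273 to 33005792, minus strand), had the most counts of the 10 genes in every library. It stood at 1155, 1189 and 1135 CPM in the MYDGF group, 1333, 1229 and 1076 CPM in the aristolochic acid group and 1731, 1849 and 1913 CPM in untreated cells. Every untreated library lay above all 6 libraries given the toxin, while the MYDGF and aristolochic acid libraries overlapped. The log2 fold change was -0.59 with aristolochic acid against untreated cells (SE 0.075, n = 3 each, Benjamini-Hochberg adjusted p = 0.00015 in edgeR's quasi-likelihood test, the test and adjustment used throughout) and -0.66 with MYDGF and aristolochic acid against untreated cells (SE 0.0751, edgeR adjusted p = 0.000122). Between the MYDGF and aristolochic acid groups it was -0.06 (95% interval -0.23 to 0.10, edgeR adjusted p = 0.557), and differences within that interval were not detectable here. In bulk RNA, fewer cells with a transcript and less of it per cell cannot be told apart.

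ITGB8 encodes a β chain that binds latent TGF-β (ENSG00000105855, chromosome 7, 20330702 to 20415754, plus strand), and it was the least abundant of the 10. It had 23, 20 and 18 counts in the MYDGF group, 48, 41 and 34 in the aristolochic acid group and 156, 125 and 102 in untreated cells. In CPM these are 1.76, 1.56 and 1.27 with MYDGF, 3.89, 3.17 and 3.13 with aristolochic acid and 12.4, 10.5 and 7.72 in untreated cells. The 3 groups do not overlap in any pair. Relative to untreated cells, ITGB8 fell by 1.58 on the log2 scale with aristolochic acid (SE 0.209, edgeR adjusted p = 0.000192), and the log2 fold change was -2.73 with MYDGF and aristolochic acid (SE 0.226, edgeR adjusted p = 2.46e-05). Relative to the aristolochic acid group, the MYDGF group was lower by a log2 fold change of -1.15 (SE 0.237, edgeR adjusted p = 0.00771). The counts of 18 to 48 in the toxin-treated libraries limit how closely its level is known.

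ITGA5, the fibronectin receptor chain (ENSG00000161638, chromosome 12, 54395261 to 54419266, minus strand), stood at 165, 175 and 164 CPM in the MYDGF group, 130.3, 109 and 118 CPM in the aristolochic acid group and 148, 151 and 165 CPM in untreated cells. The aristolochic acid libraries lay below all others, and the MYDGF and untreated ranges overlapped. It fell with aristolochic acid against untreated cells (log2 fold change -0.38, SE 0.0782, edgeR adjusted p = 0.00252) and was higher with MYDGF than with aristolochic acid alone (0.50, SE 0.0782, edgeR adjusted p = 0.00271). Both comparisons use the same 3 aristolochic acid libraries, so they are not independent. Against untreated cells the MYDGF group differed by 0.12 (95% interval -0.05 to 0.30, edgeR adjusted p = 0.222).

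ITGA3, a laminin receptor chain (ENSG00000005884, chromosome 17, 50055968 to 50090481, plus strand), had 788, 831 and 794 CPM in the MYDGF group, 687, 639 and 685 CPM in the aristolochic acid group and 733, 719 and 711 CPM in untreated cells. The groups do not overlap, with the MYDGF libraries highest and the aristolochic acid libraries lowest. The gene was higher with MYDGF than with aristolochic acid alone (log2 fold change 0.26, SE 0.0472, edgeR adjusted p = 0.00443). It was also higher with MYDGF than in untreated cells (0.16, SE 0.0472, edgeR adjusted p = 0.0195), a call lost when any of the untreated libraries was left out (edgeR adjusted p = 0.0569, 0.086 and 0.0552 without untreated 1, 2 and 3). With aristolochic acid against untreated cells the value was -0.10 (edgeR adjusted p = 0.0837) and did not pass the threshold.

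**Figure D1:**
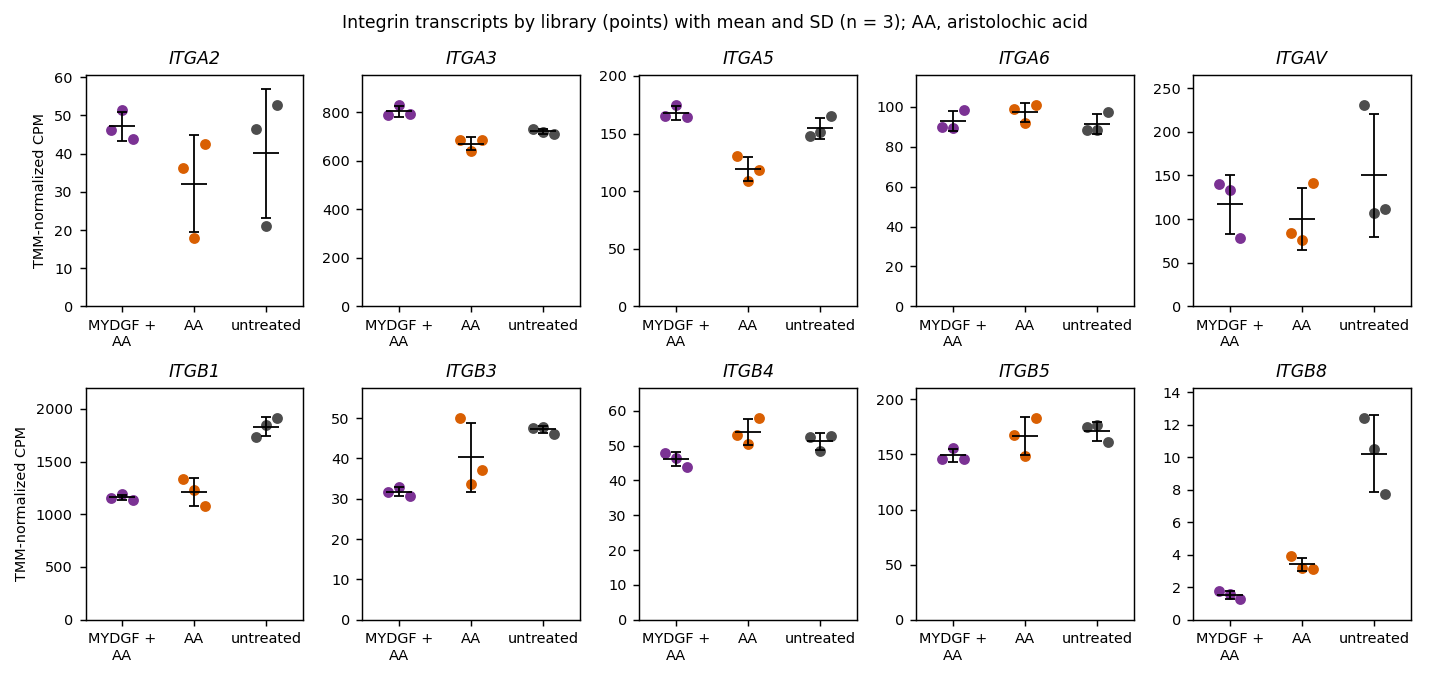
TMM-normalized CPM of the 10 integrin genes in each library (points), with the mean and SD of 3 libraries (bars); each panel has its own axis from 0. ITGB1 libraries given the toxin lie at 1076 to 1333 CPM, below the untreated 1731 to 1913 CPM. ITGAV libraries of the same group lie far apart, as do those of ITGA2 outside the MYDGF group.

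Across the set, 0 of 10 were called higher and 3 lower with aristolochic acid against untreated cells, where 59.0% of the 18267 tested genes were called either way, 29.7% higher and 29.3% lower. With MYDGF and aristolochic acid against aristolochic acid, 2 were called higher and 1 lower, and 29.4% of tested genes were called (14.7% higher, 14.7% lower). Against untreated cells the MYDGF group had 1 gene higher and 3 lower, with 51.1% of tested genes called (26.8% higher, 24.3% lower). The shares of integrins called were near or below those of all tested genes. The median log2 fold change of the 10 genes was -0.28, -0.07 and -0.17 in these comparisons, in the order given, beside -0.01, 0.01 and 0.02 over all tested genes. The median size of change was 0.28, 0.24 and 0.21 for the 10 genes, beside 0.54, 0.30 and 0.46 over all tested genes.

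Between the MYDGF and aristolochic acid groups, the β genes all had log2 fold changes below 0 (5 of 5) and the α genes, except ITGA6 at -0.07, lay above 0 (4 of 5). This split was noticed after the values were seen, and 3 of these 10 values passed the test. All 5 β values stayed below 0 in the alternative settings except without aristolochic acid library 1, where 4 did. Those settings refit the same libraries, so the steady signs do not back the split. The genes are also not replicates of each other, and the median over all tested genes was 0.01. In this comparison the libraries did not overlap between groups for 6 of the 10 genes, beside 44.3% of all tested genes. They were apart for 4 of 10 with aristolochic acid against untreated cells (65.9% of tested genes) and 6 of 10 with MYDGF and aristolochic acid against untreated cells (63.9%).

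**Figure D2:**
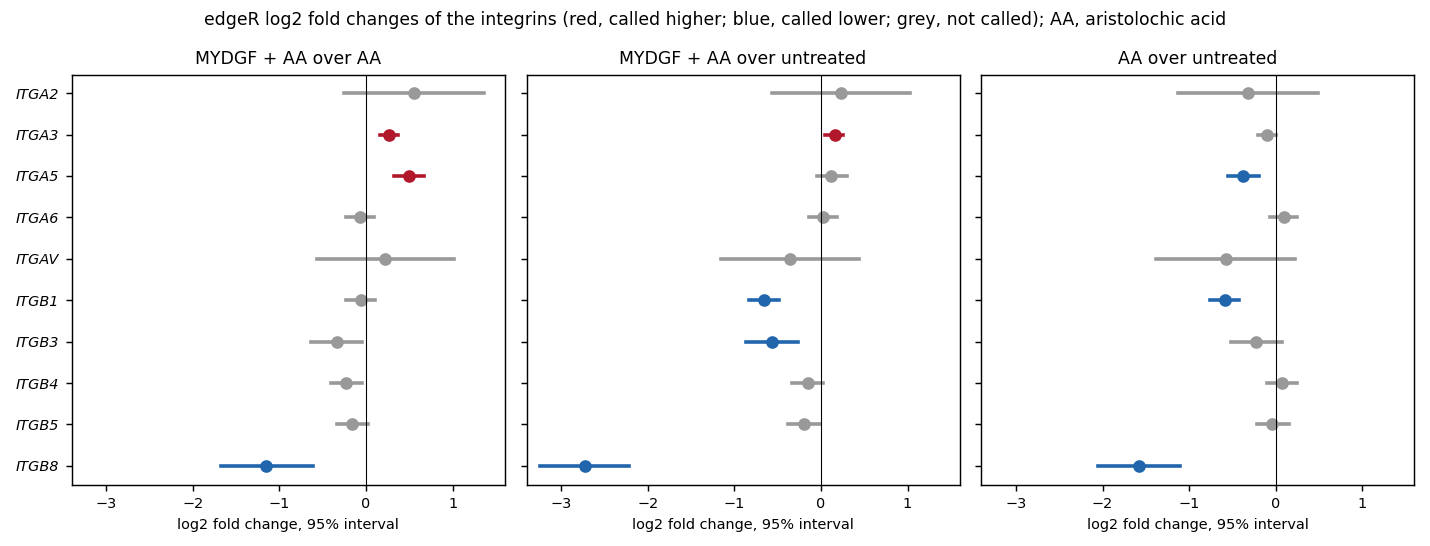
edgeR log2 fold changes with 95% intervals of the 10 genes in the 3 comparisons; red is called higher, blue called lower and grey not called at an adjusted p of 0.05. ITGB8 is lower in all panels, at -1.15, -2.73 and -1.58, and the intervals of ITGA2 and ITGAV are the widest.

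Among the remaining β genes, ITGB3, whose product pairs with the ITGAV chain (ENSG00000259207, chromosome 17, 47253827 to 47313743, plus strand), stood at 31.6, 32.9 and 30.7 CPM in the MYDGF group, 50.0, 33.6 and 37.2 CPM in the aristolochic acid group and 47.6, 47.8 and 46.1 CPM in untreated cells. All MYDGF libraries were lower than every other library, and aristolochic acid library 1 lay above the untreated ones. It fell with MYDGF and aristolochic acid against untreated cells (log2 fold change -0.57, SE 0.132, edgeR adjusted p = 0.00581). Against aristolochic acid alone the MYDGF value was -0.34 (edgeR adjusted p = 0.079). It passed the threshold in 2 of 14 alternative settings, among them the fit without aristolochic acid library 4, at -0.46 (edgeR adjusted p = 0.0312). With aristolochic acid against untreated cells the log2 fold change was -0.23 (edgeR adjusted p = 0.164), and -0.40 (edgeR adjusted p = 0.00276) without aristolochic acid library 1.

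ITGB4, the hemidesmosome chain (ENSG00000132470, chromosome 17, 75721328 to 75757818, plus strand), had 47.9, 46.3 and 43.9 CPM in the MYDGF group, 53.1, 50.5 and 57.9 CPM in the aristolochic acid group and 52.5, 48.5 and 52.7 CPM in untreated cells. The MYDGF libraries lay just below both other groups. Against aristolochic acid alone the log2 fold change was -0.23 (SE 0.0777, edgeR adjusted p = 0.0555), and against untreated cells it was -0.15 (edgeR adjusted p = 0.125). With DESeq2 in place of edgeR the difference from aristolochic acid alone passed the threshold (adjusted p = 0.0304), as it did with RLE scaling (edgeR adjusted p = 0.0356) and without aristolochic acid library 4 (edgeR adjusted p = 0.0468). Its partner ITGA6 (ENSG00000091409, chromosome 2, 172427354 to 172506459, plus strand) had 90.0, 89.6 and 98.5 CPM in the MYDGF group, 99.0, 91.8 and 101 CPM in the aristolochic acid group and 88.5, 88.5 and 97.3 CPM in untreated cells. Its groups overlapped throughout, with 95% intervals of -0.23 to 0.09 for MYDGF against aristolochic acid and -0.07 to 0.25 for aristolochic acid against untreated cells on the log2 scale.

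ITGB5, the main vitronectin receptor β chain by level here (ENSG00000082781, chromosome 3, 124761948 to 124901418, minus strand), stood at 146, 156 and 146 CPM in the MYDGF group, 168, 149 and 183 CPM in the aristolochic acid group and 175, 177 and 161 CPM in untreated cells. The MYDGF libraries lay below the untreated ones (log2 fold change -0.19, edgeR adjusted p = 0.0727), and the aristolochic acid range met both. That difference passed the threshold when the aristolochic acid libraries were left out of the fit (edgeR adjusted p = 0.0315) and without aristolochic acid library 4 alone (edgeR adjusted p = 0.0341). With aristolochic acid against untreated cells the value was -0.04 (95% interval -0.22 to 0.15, edgeR adjusted p = 0.725), and 0.04 without aristolochic acid library 4.

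ITGAV varied more between libraries of a group than between groups. ITGA2 did so in the aristolochic acid and untreated groups, while its MYDGF libraries lay close together. ITGAV, the α chain shared by the vitronectin and TGF-β receptors (ENSG00000138448, chromosome 2, 186590010 to 186680901, plus strand), stood at 140, 133 and 78.4 CPM in the MYDGF group, 84.5, 75.9 and 141 CPM in the aristolochic acid group and 231, 107 and 112 CPM in untreated cells. In each group 1 library stood apart: MYDGF 4 was low, and aristolochic acid 6 and untreated 1 were high. The log2 fold change was -0.58 with aristolochic acid against untreated cells (95% interval -1.38 to 0.22, edgeR adjusted p = 0.186) and 0.22 with MYDGF against aristolochic acid alone (95% interval -0.57 to 1.02, edgeR adjusted p = 0.672). The interval against untreated cells holds the value found for ITGB1.

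ITGA2, the collagen receptor chain (ENSG00000164171, chromosome 5, 52989340 to 53094779, plus strand), had 46.2, 51.4 and 43.8 CPM in the MYDGF group, 36.3, 17.8 and 42.4 CPM in the aristolochic acid group and 46.4, 21.0 and 52.8 CPM in untreated cells. Aristolochic acid library 4 and untreated library 2 were low, with 230 and 250 counts beside 448 to 698 in the other 7 libraries. All MYDGF libraries exceeded the aristolochic acid ones, yet the log2 fold change of 0.55 did not pass (95% interval -0.26 to 1.36, edgeR adjusted p = 0.279). The low libraries of ITGA2 were not the outlying libraries of ITGAV.

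The biological coefficient of variation, edgeR's estimate of spread between libraries beyond counting, was 30.9% for ITGA2 and 30.4% for ITGAV. It was 17.7% for ITGB8, 12.7% for ITGB3 and 7.36% to 9.42% for the other 6 genes, beside a median of 13.1% over tested genes. A larger value was found for 8.58% of tested genes than for ITGA2 and for 9.05% than for ITGAV. The highest ITGA2 library was 1.17, 2.39 and 2.52 times the lowest in the MYDGF, aristolochic acid and untreated groups, and the highest ITGAV library was 1.78, 1.85 and 2.17 times the lowest. Of 10668 genes with a mean of at least 10 CPM, 289 (2.71%) spanned more than 1 log2 unit in at least 2 groups, as ITGA2 did.

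**Figure D3:**
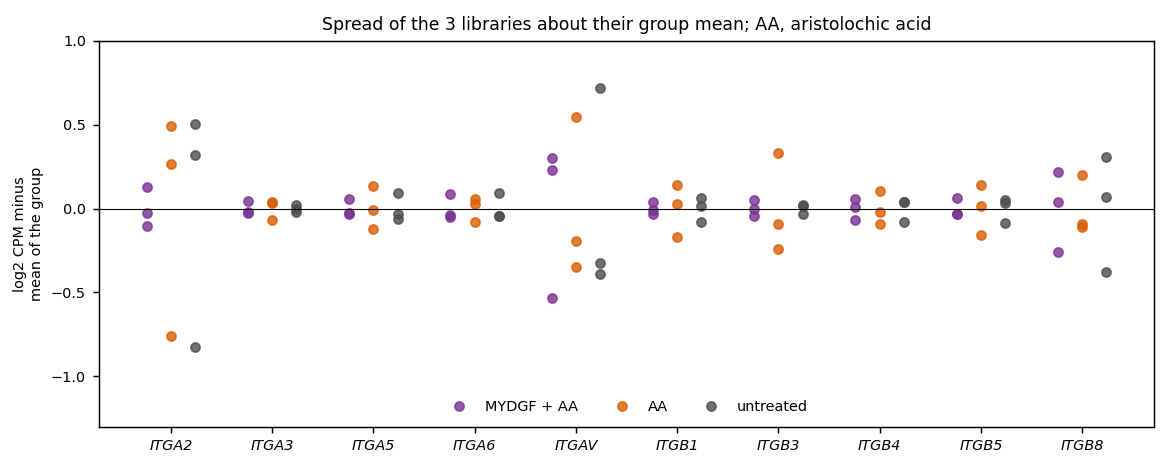
Distance of each library from its group mean in log2 CPM for the 10 genes. ITGA2 and ITGAV libraries scatter most, with ITGA2 low in aristolochic acid 4 and untreated 2 and ITGAV high in untreated 1 and aristolochic acid 6.

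Levels of different genes were set side by side per length, first with the deposited FPKM (fragments per kilobase of gene, scaled to library size). In the MYDGF group ITGA3 led with 48.0 FPKM, followed by ITGB1 with 39.3, ITGB5 with 16.1, ITGA5 with 13.3 and ITGA6 with 8.12 FPKM, and no neighbours in this order overlapped. In the aristolochic acid group ITGB1 at 41.4 and ITGA3 at 40.3 FPKM overlapped, as did ITGA5 at 9.53 and ITGA6 at 8.59 FPKM, and ITGB5 stood between them at 18.1 FPKM. In untreated cells the order was ITGB1 at 61.5, ITGA3 at 42.7, ITGB5 at 18.2, ITGA5 at 12.2 and ITGA6 at 7.96 FPKM, without overlap. The lower places were held by ITGA2, ITGB4, ITGB3 and ITGAV at 2.67 to 5.21 FPKM with MYDGF, 2.30 to 5.38 FPKM with aristolochic acid and 3.39 to 6.13 FPKM in untreated cells. ITGB8 was last in each group, at 0.085, 0.19 and 0.562 FPKM in the MYDGF, aristolochic acid and untreated groups.

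The order depends on the gene length used. The length behind the deposited FPKM was 29.5 kb for ITGB1 and 43.8 kb for ITGAV, against 3.8 kb and 7.0 kb for their longest coding transcripts in GENCODE 29, while it was 9.0 kb against 7.9 kb for ITGA2. With the coding transcript length, a choice made after the values were seen, ITGB1 was first in all groups, at 306, 322 and 479 FPKM in the MYDGF, aristolochic acid and untreated groups, ahead of ITGA3 at 164, 138 and 146 FPKM. ITGAV then took the fifth or sixth place, at 16.6, 14.3 and 21.2 FPKM in the same groups, overlapping with ITGA6. ITGA5 also passed ITGB5 with MYDGF, at 37.7 and 34.0 FPKM, where their libraries do not overlap.

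**Figure D4:**
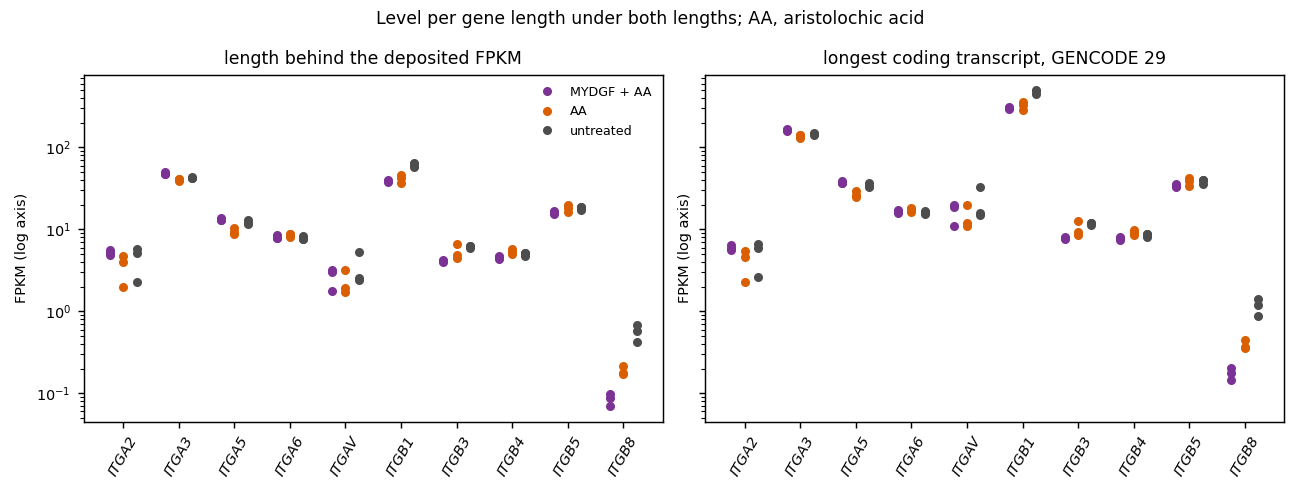
FPKM of each library on a log axis, with the length behind the deposited FPKM (left) and the longest coding transcript of GENCODE 29 (right). With the deposited length ITGA3 leads in the MYDGF group at 48.0 FPKM, with the coding length ITGB1 leads in every group, and ITGB8 is last on both scales.

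Ratios of chains within a library do not depend on scaling between libraries, and their change between groups does not depend on length. ITGA3 over ITGB1 was 1.20, 1.23 and 1.23 in the MYDGF group, 0.908, 0.916 and 1.12 in the aristolochic acid group and 0.746, 0.685 and 0.655 in untreated cells, with no overlap. ITGA5 over ITGB1 was 0.336, 0.345 and 0.339 with MYDGF, 0.229, 0.208 and 0.258 with aristolochic acid and 0.201, 0.191 and 0.202 in untreated cells, again with no overlap. ITGB3 over ITGB5 was 0.258 ± 0.00321 with MYDGF, 0.295 ± 0.0607 with aristolochic acid and 0.336 ± 0.0107 in untreated cells (SD, n = 3 each), and only the MYDGF and untreated groups lay apart. ITGB4 over ITGA6, the hemidesmosome pair, was 0.564 ± 0.0526 with MYDGF, 0.627 ± 0.0218 with aristolochic acid and 0.635 ± 0.0314 in untreated cells, and the MYDGF libraries lay below all others. ITGB8 over ITGB5 was 0.00529 ± 0.000856, 0.0106 ± 0.00161 and 0.0306 ± 0.00587 in the same groups. Over 15 comparisons of these ratios, groups lay apart in 12, each with an exact two-sided permutation p of 0.1 (0.125 after Benjamini-Hochberg adjustment), the smallest that 3 libraries against 3 allow. Single genes lay apart for 65.9% of tested genes with aristolochic acid against untreated cells. The share was 44.3% with MYDGF against aristolochic acid and 63.9% with MYDGF against untreated cells. No share was computed for ratios of other gene pairs. These ratios reuse genes and libraries, so their comparisons are not independent. For ITGB3 over ITGB5 the exact permutation p was 0.4 both for MYDGF against aristolochic acid and for aristolochic acid against untreated cells, and for ITGB4 over ITGA6 it was 0.7 with aristolochic acid against untreated cells.

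**Figure D5:**
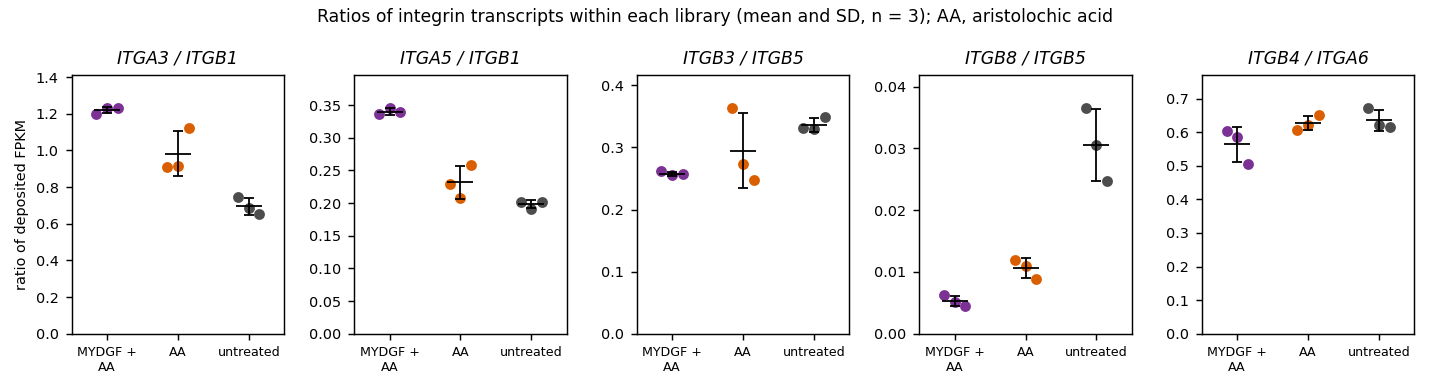
Ratio of deposited FPKM between pairs of integrin genes in each library (points), with mean and SD of 3 libraries. ITGA3 over ITGB1 averages 1.22 with MYDGF, 0.982 with aristolochic acid and 0.695 in untreated cells, without overlap.

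The integrin genes outside this set, 16 in number, were mostly low, and 6 of them were not tested, among them the epithelial ITGB6 with 29 counts over the 9 libraries. Of the 10 tested, 7 were called higher and 1 lower with aristolochic acid against untreated cells, and 0 higher and 6 lower with MYDGF against aristolochic acid alone. With MYDGF against untreated cells 5 were higher and 1 lower. Medians of the log2 fold change were 1.32, -1.02 and 0.33; the shares called and medians over all tested genes given above are the background for this and the following lists. The leukocyte and chondrocyte integrin genes ITGA10 (4.84), ITGAM (4.12) and ITGB7 (2.84) rose most with aristolochic acid, and ITGA1, a collagen receptor chain, fell by 1.73. Under MYDGF, ITGAX (-2.83), ITGA10 (-2.29) and ITGA9 (-1.25) were lower than with aristolochic acid alone. ITGAX had 10 counts in the MYDGF group, 67 in the aristolochic acid group and 19 in untreated cells. It passed the filter on low counts only because of its aristolochic acid libraries, where it is high, so its calls are not independent of that filter. The summed level of the 16 genes was 156 to 168 CPM with MYDGF, 221 to 231 CPM with aristolochic acid and 133 to 148 CPM in untreated cells. ITGB2 and ITGAE were the highest of these genes and weigh most in the sum. ITGB2 stood at 60.7 to 64.2 CPM with MYDGF, 53.1 to 83.9 CPM with aristolochic acid and 44.5 to 46.9 CPM in untreated cells. ITGAE stood at 43.7 to 50.0, 45.7 to 50.0 and 37.2 to 46.9 CPM in the same groups.

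Integrin ligands are matrix proteins and matricellular factors. Of 25 tested ligand genes (31 listed), 4 rose and 14 fell with aristolochic acid against untreated cells, with a median log2 fold change of -0.37. The plasma and matrix protein VTN fell by 2.77, FN1, the ITGA5 ligand, by 1.62 and LTBP1, a latent TGF-β binder, by 1.49, while the laminin chain LAMB3 rose by 1.48 and the matricellular genes CCN1 and CCN2 by 1.17 and 1.02. With MYDGF against aristolochic acid alone, 9 were higher and 2 lower (median 0.24). FN1 was higher by 1.20, LAMA3 by 1.01 and TNC by 0.91, and LAMB3 (-0.61) and FBN1 (-0.49) were lower. Against untreated cells, the MYDGF group had 6 ligand genes higher and 11 lower (median -0.18), with VTN at -2.46, LTBP1 at -1.56, LAMB1 at -0.99, and CCN2 at 1.07, CCN1 at 1.05 and TNC at 1.03.

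Adaptors and kinases that bind integrin tails or relay their signals were all tested (36 genes). With aristolochic acid against untreated cells 9 rose and 12 fell (median -0.14): the kindlin gene FERMT3 rose by 4.48, the scaffold NEDD9 by 1.5 and the tensin TNS2 by 1.29, and KANK2, PTK2B and TNS4 fell by 1.32, 1.31 and 1.01. With MYDGF against aristolochic acid alone 9 were higher and 5 lower (median 0.17), led by TNS4 (1.03), GIT1 (0.99) and FERMT2 (0.69) on one side and TNS2 (-2.17), FERMT3 (-0.86) and PARVA (-0.65) on the other. The kindlin FERMT3, best known from blood cells, stood at 19.5, 13.3 and 15.8 CPM with MYDGF, 21.1, 35.7 and 31.5 CPM with aristolochic acid and 0.951, 2.18 and 0.832 CPM in untreated cells. Against untreated cells the MYDGF group had 12 higher and 8 lower (median 0.05), with FERMT3 at 3.63, NEDD9 at 1.21, ZYX at 0.61, PTK2B at -1.15, TNS2 at -0.89 and KANK2 at -0.88.

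Of 16 tested genes for integrin inactivation and recycling, 4 rose and 8 fell with aristolochic acid against untreated cells (median -0.38). SHARPIN, an inhibitor of integrin activation, fell by 1.32, the recycling sorting nexin SNX17 by 1.31 and the clathrin adaptor DAB2 by 1.14, while EHD1 and RAB11FIP1 rose by 0.98 and 0.91. With MYDGF against aristolochic acid alone 6 were higher and 3 lower (median 0.05), among them DOK1 (1.10), SHARPIN (1.0) and SNX17 (0.68) higher and RAB11FIP1 (-0.36) and RAB21 (-0.22) lower. SNX31 had 13 counts in the MYDGF group, 49 in the aristolochic acid group and 0 in untreated cells. Against a floor of 3 counts over the untreated group, this is at least 4.09-fold higher with MYDGF and at least 17.1-fold higher with aristolochic acid. SNX31 passed the filter on low counts only because of its aristolochic acid libraries, so its calls are not independent of that filter. The MYDGF group had 4 higher and 5 lower against untreated cells (median -0.18), with EHD1 at 0.69, RAB11FIP1 at 0.55, ARF6 at -1.76, DAB2 at -1.24 and SNX17 at -0.62. ARF6, a small GTPase of integrin recycling, stood at 128, 133 and 135 CPM with MYDGF and 460.3, 437 and 446 CPM in untreated cells, and at 78.5, 84.2 and 518 CPM with aristolochic acid, where library 6 stood apart.

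Laminin receptor partners and tetraspanins (12 genes, all tested) had 2 higher and 6 lower with aristolochic acid against untreated cells (median -0.34). CD151, the tetraspanin partner of the laminin integrins, fell by 1.13, the hemidesmosome collagen COL17A1 by 0.66 and CD81 by 0.58, while SLC3A2 rose by 1.22 and the hemidesmosome linker PLEC by 0.68. With MYDGF against aristolochic acid alone 3 were higher and 3 lower (median 0.19): CD151 (0.41), BSG (0.31) and CD63 (0.27) were higher, and CD82 (-0.60), PLEC (-0.31) and CD9 (-0.21) lower. Against untreated cells the MYDGF group had 4 higher and 5 lower (median -0.23), with SLC3A2 at 1.35, DST at 0.49, PLEC at 0.38, CD151 at -0.72, CD82 at -0.66 and CD46 at -0.60.

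Markers of other cell types moved between the groups, and their part in the integrin results was not tested. Tested endothelial markers numbered 6 of 13, of which 4 rose and 1 fell with aristolochic acid against untreated cells, and 1 was higher and 4 lower with MYDGF against aristolochic acid alone. PECAM1, ROBO4, TEK and ESAM rose by 3.74, 2.96, 2.77 and 2.30 on the log2 scale with aristolochic acid against untreated cells, and EGFL7 fell by 1.54. TEK had 12 counts in the MYDGF group, 54 in the aristolochic acid group and 8 in untreated cells. It passed the filter on low counts only because of its aristolochic acid libraries, so its calls are not independent of that filter. The summed level of the 13 endothelial markers was 26.5 to 33.5 CPM with MYDGF, 28.4 to 36.2 CPM with aristolochic acid and 29.6 to 33.1 CPM in untreated cells. EGFL7 made up most of the untreated sum, at 15.4, 22.7 and 21.2 CPM with MYDGF, 11.8, 6.72 and 8.92 CPM with aristolochic acid and 26.0, 25.8 and 28.4 CPM in untreated cells. PECAM1 stood at 2.83, 1.48 and 2.05 CPM with MYDGF, 5.02, 11.3 and 7.45 CPM with aristolochic acid and 0.475, 0.671 and 0.605 CPM in untreated cells, so the sum does not show how its members moved. Leukocyte markers (6 of 13 tested, 4 higher and 1 lower with aristolochic acid) summed to 29.2 to 32.5, 33.8 to 35.4 and 19.6 to 26.1 CPM in the MYDGF, aristolochic acid and untreated groups. ITGAM and ITGAX, both called higher, are also counted among the other integrin genes above, so the lists are not separate. CD79A and ITGAM rose by 4.51 and 4.12 and CD68 fell by 1.46 with aristolochic acid, and LCP1 had 684 counts in the MYDGF group, 266 in the aristolochic acid group and 182 in untreated cells. Fibroblast and mesangial markers (6 of 13 tested, 4 higher and 1 lower with aristolochic acid) summed to 118 to 133, 104 to 110.3 and 64.5 to 81.0 CPM in the same groups, and TAGLN, an actin-binding gene of contractile cells, gave most of this, at 82.0 to 93.1 CPM with MYDGF, 67.2 to 78.6 CPM with aristolochic acid and 39.0 to 51.0 CPM in untreated cells. Epithelial and tubule markers (11 of 16 tested, 9 higher and 1 lower with aristolochic acid) summed to 2119 to 2184, 2373 to 2388 and 1682 to 1714 CPM. CDH1, the epithelial cadherin, was the 1 that fell: it stood at 70.5, 76.2 and 71.6 CPM with MYDGF, 52.8, 40.5 and 47.0 CPM with aristolochic acid and 96.9, 106 and 105 CPM in untreated cells.

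The αv integrins are known to help adenovirus particles enter cells after they attach to the receptor made by CXADR. CXADR stood at 209.7, 214 and 202 CPM in the MYDGF group, 163, 172 and 163 CPM in the aristolochic acid group and 226, 212 and 221 CPM in untreated cells. It fell with aristolochic acid against untreated cells (log2 fold change -0.40, edgeR adjusted p = 0.000206) and was higher with MYDGF than with aristolochic acid alone (0.33, edgeR adjusted p = 0.00316).

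The protein-coding genes whose pattern over the 9 libraries lay closest to ITGB1, out of 13703, were PRCP, UGCG and B3GNT2, with root mean square differences of 0.0442, 0.0538 and 0.0558 log2 units, beside 0.308 for ITGB1 about its own mean. PRCP stood at 78.0, 73.1 and 73.2 CPM with MYDGF, 83.2, 78.4 and 71.0 CPM with aristolochic acid and 115, 117 and 129 CPM in untreated cells. Closest to ITGAV were UPK3BL1, GUCD1 and C5orf24, at 0.16, 0.234 and 0.24 log2 units, beside 0.481 for ITGAV about its mean; no gene lay as close to ITGAV as PRCP did to ITGB1. C5orf24 stood at 31.0, 30.6 and 17.6 CPM with MYDGF, 21.1, 13.4 and 36.5 CPM with aristolochic acid and 52.7, 32.7 and 19.1 CPM in untreated cells. It shares with ITGAV the low MYDGF 4 and the high aristolochic acid 6 and untreated 1. C5orf24 was picked for its likeness over these same libraries, so this sharing follows from the choice.

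Transcripts that overlap the integrin genes on the opposite strand could share reads with them, since the strand setting of the counting is not given. There were 3 such tested genes, ITGB1-DT, GALK1 and PDK1-AS1, and they are described with their values already seen. The divergent transcript ITGB1-DT stood at 6.89, 7.73 and 7.49 CPM with MYDGF, 4.94, 6.26 and 3.59 CPM with aristolochic acid and 2.62, 3.78 and 2.65 CPM in untreated cells, the opposite direction to ITGB1. It was higher with aristolochic acid than in untreated cells (log2 fold change 0.72, edgeR adjusted p = 0.0235) and higher with MYDGF than in untreated cells (1.29, edgeR adjusted p = 0.00135). GALK1, which overlaps the end of ITGB4, stood at 10.3, 19.7 and 10.7 CPM with MYDGF, 7.85, 4.79 and 5.98 CPM with aristolochic acid and 26.6, 28.7 and 26.3 CPM in untreated cells. It fell by 2.13 with aristolochic acid against untreated cells (edgeR adjusted p = 0.000147), whereas ITGB4 had a log2 fold change of 0.07 there (edgeR adjusted p = 0.454). GALK1 was higher with MYDGF than with aristolochic acid alone (1.12, edgeR adjusted p = 0.0138), beside -0.23 for ITGB4. It was lower with MYDGF than in untreated cells (-1.0, edgeR adjusted p = 0.00865), beside -0.15 for ITGB4. Whether shared reads touched the ITGB4 values was not tested. PDK1-AS1, which overlaps ITGA6, stood at 0.383, 0.859 and 0.495 CPM with MYDGF, 0.972, 0.386 and 0.644 CPM with aristolochic acid and 1.58, 1.26 and 1.59 CPM in untreated cells. It fell by 1.14 with aristolochic acid against untreated cells (edgeR adjusted p = 0.0271) and by 1.35 with MYDGF and aristolochic acid against untreated cells (edgeR adjusted p = 0.0158), at a level far below that of ITGA6.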

How the data were processed

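RNA sequencing of 9 HK-2 libraries in 3 groups was analysed from a table of all 62703 genes. Per the file headers, the deposited counts are raw whole numbers for each gene. The deposited FPKM values beside them were computed by the authors: for all 37792 genes with an FPKM above 0 they fit a single gene length within 0.1%. The submitters' processing notes name HISAT2, SAMtools 1.3.1, CASAVA 1.8, edgeR and the mouse build mm10. The table lists human genes, 99.9% of the 58279 IDs found in GENCODE 29 overlap their GRCh38 position there, and positions are read as GRCh38. How reads were assigned to genes (tool, strand, reads with several matches) is not stated in labels or headers. Rows without a symbol took 1.44 to 1.87% of counts and stayed in.

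The tests were run in edgeR 4.0.16 (R 4.3.3) with TMM scaling, filterByExpr (minimum count 10, total 15) and a quasi-likelihood fit of 1 factor with 3 groups to all 9 libraries (6 residual degrees of freedom, 18267 genes tested). P-values are two-sided and Benjamini-Hochberg adjusted over all tested genes, with a threshold of 0.05. The fit was tested on simulated data. Alternatives were RLE scaling, DESeq2 1.42.0, no filter on low counts, only the 6 libraries compared, the replicate number as a block, each library left out, TMM-scaled FPKM and, added after seeing the data, the coding transcript length. All 10 members are given. From each list of related genes, those called with the 3 largest changes in each direction are named. Members and lists were chosen with earlier results of these data known. A symbol with several rows was read as the row with the most counts.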

Additional observations from a re-analysis of the deposited data

How the results depend on the processing

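Of the log2 fold changes of the 10 genes under the alternatives, 392 kept their direction and their side of the threshold, 8 passed it newly, 10 no longer passed and 10 changed sign. The sign changes were all in values not called on either side: ITGB5 with aristolochic acid against untreated cells (0.0 with RLE scaling and with DESeq2, 0.04 without aristolochic acid library 4, against -0.04), ITGB1 with MYDGF and aristolochic acid against aristolochic acid (0.01 without aristolochic acid library 1, against -0.06), and 3 genes with MYDGF and aristolochic acid against untreated cells. These were ITGA6 (-0.01 under the replicate block and without MYDGF library 4, -0.02 without untreated 1 or 2, against 0.02), ITGAV (0.08 without untreated 1, against -0.36) and ITGA2 (-0.09 without untreated 2, against 0.23). Over the fits leaving out 1 library, ITGB1 ran from -0.15 to 0.01, ITGA2 from -0.09 to 0.50 and ITGAV from -0.57 to 0.08 in these comparisons. ITGB1 and ITGB8 were called in all 14 settings with aristolochic acid against untreated cells and with MYDGF and aristolochic acid against untreated cells. In the comparison of MYDGF and aristolochic acid with aristolochic acid, the number of integrins called lower was 2 with RLE scaling and 3 with DESeq2, against 1. In that of MYDGF and aristolochic acid with untreated cells, the number called higher was 0 without a filter on low counts, against 1. Leaving out each library gave 9936 to 11347 genes called for aristolochic acid against untreated cells, 3504 to 6614 for MYDGF and aristolochic acid against aristolochic acid (3504 without MYDGF library 3, against 5379) and 7894 to 10031 for MYDGF and aristolochic acid against untreated cells. In these fits 3 to 4, 1 to 3 and 3 to 4 integrins were called lower and 0 to 0, 2 to 2 and 0 to 1 higher, in the same order. With coding transcript length, ITGB1 over ITGA3 was 1.86 with MYDGF, 2.34 with aristolochic acid and 3.28 in untreated cells, against 0.818, 1.03 and 1.44 with the deposited length, which follows from the lengths themselves.

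Replicate number 1 occurs in all 3 groups, 3 in the untreated and MYDGF groups, and 4 in the aristolochic acid and MYDGF groups. Deviations of same-numbered libraries correlated at -0.165 to 0.0183, and those of differently numbered libraries at -0.141 to 0.181. Same-numbered libraries were thus not more alike, but these few correlations cannot exclude that the numbers pair the samples. With the replicate block, 5062 genes were called for aristolochic acid against untreated cells (10779 without it), 14 for MYDGF and aristolochic acid against aristolochic acid (5379) and 5446 for MYDGF and aristolochic acid against untreated cells (9329). Under the block 0 integrins were called higher and 0 lower with MYDGF and aristolochic acid against aristolochic acid, and 0 higher and 2 lower with MYDGF and aristolochic acid against untreated cells. With aristolochic acid against untreated cells 2 were lower. The calls lost were ITGA5 with aristolochic acid against untreated cells (edgeR adjusted p = 0.126), ITGA3, ITGA5 and ITGB8 with MYDGF against aristolochic acid (0.102, 0.0843 and 0.0871) and ITGA3 and ITGB3 with MYDGF against untreated cells (0.117 and 0.0726). The block leaves fewer residual degrees of freedom than the 6 of the main fit. Untreated 2 and aristolochic acid 6 are each alone in their block, so they do not inform the group differences there. The cause of the lost calls was not tested. The depth of 10876572 to 14254786 counts leaves ITGB8 with 18 to 156 counts per library.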
